A study of Mus musculus with 12 samples.

Results

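The insulin-like growth factor (IGF) axis was followed in 12 bulk RNA sequencing libraries as 10 genes taken by symbol: the ligands Igf1 and Igf2, the receptors Igf1r and Igf2r, and the binding protein genes Igfbp2, Igfbp3, Igfbp4, Igfbp5, Igfbp6 and Igfbp7. All 10 were found among 27592 genes that could be joined between the gene annotations of the files, and all 10 were among the 13946 genes with enough counts to be tested. The libraries carry the label monocyte and came from the meninges, the membranes around the brain, of male C57BL/6J mice. There were 3 libraries in each of 4 groups: psilocybin, MDMA or vehicle given after 18 days of restraint stress and 24 hours before the tissue was taken, and unstressed mice. Psilocybin is the prodrug of psilocin, a serotonin receptor agonist, and MDMA is an amphetamine that releases serotonin. The sources used here give no doses or ages. Nothing in the labels ties a library to its own animal, so each p-value reflects variation between these libraries, part of which may be technical.

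IGF1 and IGF2 are small secreted proteins related to insulin. Both signal through the tyrosine kinase receptor encoded by Igf1r, whereas the protein of Igf2r, also known as the mannose 6-phosphate receptor, takes IGF2 up and delivers it to lysosomes. IGF-binding proteins hold most of the IGF outside cells and either keep it from the receptor or carry it there, and IGFBP7 binds IGFs only weakly. In rodent brain, Igf2 is known from the choroid plexus and the leptomeninges, and microglia and other macrophages are known sources of Igf1. Igf2 is an imprinted gene, expressed mainly from the paternal copy in most tissues, and Igf2r is imprinted in the opposite direction in mice.

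The libraries held 2601848 to 4079069 gene counts in the psilocybin group, 2859534 to 5136953 in the MDMA group, 807725 to 3623830 in the vehicle group and 2949163 to 4504400 in the unstressed group. Of the joined genes, 15342 to 17927 had a count in each drug library, 10345, 13464 and 9522 in vehicle libraries 1, 2 and 3 and 14322 to 17516 in each unstressed library. Correlations of log2 levels between the libraries of a group ran from 0.901 to 0.951 for psilocybin, 0.8 to 0.93 for MDMA, 0.475 to 0.613 for vehicle and 0.824 to 0.857 for unstressed, so the vehicle libraries were the least alike. Vehicle libraries 1 and 3 had the fewest genes with a count, and some results that rest on them are also given without them. The genes most like each of the 10 were taken over all 9 stressed libraries only, so their correlations can rest on these vehicle libraries. The label was checked against the defining markers of classical monocytes: Ly6c2 had 5.77 to 21.3 counts scaled to library size (CPM) in the psilocybin group, 18.5 to 50.4 in the MDMA group, 0.0 to 28.1 in the vehicle group and 0.666 to 7.48 in the unstressed group. Ccr2 had 18.4 to 73.5 CPM in the psilocybin group, 54.1 to 121.0 in the MDMA group, 0.276 to 18.9 in the vehicle group and 53.6 to 79.3 in the unstressed group. Markers of choroid plexus epithelium, summed over 10 genes, reached 22600 to 118000 CPM in the drug libraries, 12900 to 127000 CPM in the vehicle libraries and 15400 to 40400 CPM in the unstressed libraries, against 51.6 to 1120 CPM for 7 classical monocyte markers over all libraries. In such mixed bulk samples, fewer cells of a type and less RNA per cell cannot be told apart.

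The 10 genes were expressed in every library, with Igfbp5 the highest of them per length in 7 of 12 libraries. Igfbp5, which encodes a binding protein that attaches to extracellular matrix, had 1892, 871.3 and 1546 CPM in psilocybin libraries 1, 2 and 3 and 1427, 2382 and 2040 CPM in MDMA libraries 1, 2 and 3. It had 325.9, 869.1 and 4578 CPM in vehicle libraries 1, 2 and 3 and 2474, 2696 and 3733 CPM in unstressed libraries 1, 2 and 3. The vehicle libraries spanned a 14.0-fold range and overlapped every other group, while all drug libraries lay below all unstressed ones. As a share of the summed CPM of the 6 binding protein genes, Igfbp5 made up 44.5% to 57.0% in psilocybin, 47.3% to 65.6% in MDMA, 22.6% to 87.7% in vehicle and 73.9% to 82.2% in unstressed libraries. These are shares of counts, which favour longer transcripts. Divided by the exonic bases that each annotation gives the gene alone, the means of Igfbp5 were 239.2 CPM per kb in psilocybin, 324.6 in MDMA, 320.4 in vehicle and 507.0 in unstressed libraries. By this length-adjusted level, Igfbp7 came first in vehicle library 2, psilocybin libraries 2 and 3 and MDMA library 1, and Igfbp2 came first in vehicle library 1. The ranges of mean ± SD of Igfbp5, Igfbp7 and Igfbp2 overlapped in psilocybin and in vehicle libraries, and those of Igfbp5 and Igfbp7 in MDMA libraries, so the order of these genes is not firm there. Igf2r came last in 7 libraries, Igf2 in 3 and Igf1r in 2.

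**Figure D1:**
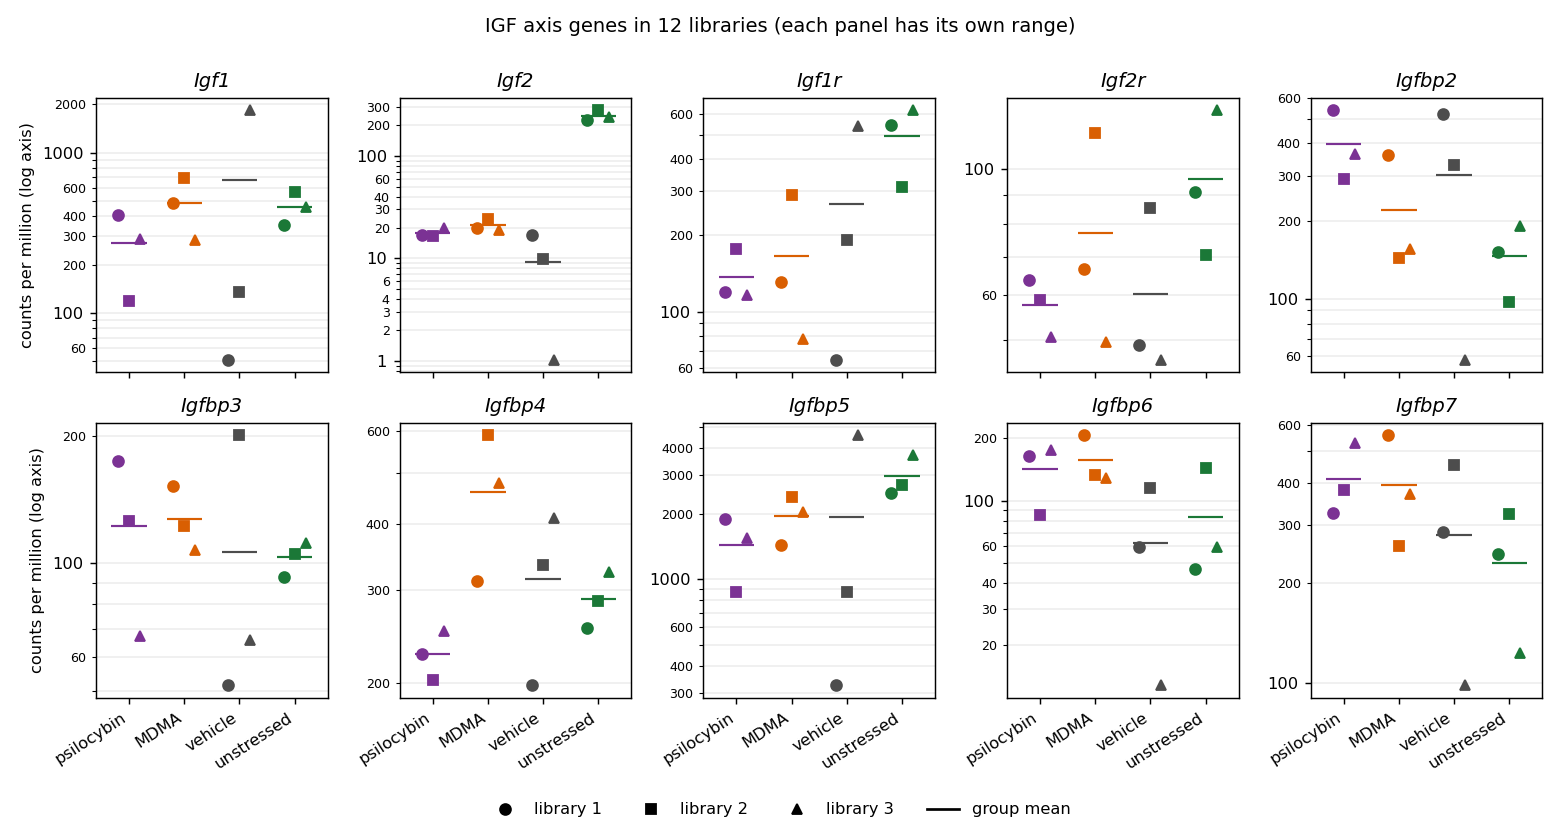
CPM of each gene (vertical log axis) in the libraries of the psilocybin, MDMA, vehicle and unstressed groups. Symbols are libraries 1 to 3 and bars are group means; Igf2 sits between 223.8 and 279.1 CPM in unstressed libraries, above all 9 stressed libraries, and the 3 vehicle libraries are spread widely for Igf1 and Igfbp5.

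Igf2 was the only one of the 10 genes to pass the test across all genes in the fit over all 12 libraries, and it passed in vehicle against unstressed mice. It had 16.87, 16.53 and 19.61 CPM in psilocybin libraries 1, 2 and 3, and 19.9, 24.48 and 19.08 CPM in MDMA libraries 1, 2 and 3. It had 16.83, 9.904 and 1.023 CPM in vehicle libraries 1, 2 and 3, against 223.8, 279.1 and 238.0 CPM in unstressed libraries 1, 2 and 3. All 9 stressed libraries lay below all 3 unstressed ones. The vehicle values rest on 61, 8 and 2 counts, and the exact 95% Poisson interval of the lowest, which covers counting error only, runs from 0.124 to 3.7 CPM. In vehicle against unstressed mice Igf2 fell by 4.63 ± 0.79 on the log2 scale (SE, n = 3 each), with an adjusted p of 0.0199 (edgeR quasi-likelihood, Benjamini-Hochberg over all genes). In that comparison 3.43% of all genes tested passed the same threshold of 0.05, and 1 of the 10 IGF axis genes did. In CPM the groups did not overlap for 20.6% of all genes and for 1 of the 10, again Igf2. In psilocybin against unstressed mice the log2 difference of Igf2 was -3.79 ± 0.75 (edgeR adjusted p = 0.0808), and in MDMA against unstressed mice -3.57 ± 0.74 (edgeR adjusted p = 0.0867). These 3 comparisons share their unstressed libraries. In fits of only the libraries compared, Igf2 passed for psilocybin (-3.78, edgeR adjusted p = 0.00038) and MDMA (-3.56, edgeR adjusted p = 0.00115) against unstressed mice. For vehicle it did not pass in such a fit (-4.62, edgeR adjusted p = 0.269). With the replicate number as a block, the edgeR adjusted p of Igf2 was 0.206 for psilocybin and 0.257 for MDMA. A test of any difference among the 4 groups, which 0.581% of genes passed, gave Igf2 an adjusted p of 0.0121 by edgeR. That call was lost per own exonic base, with the replicate block and without unstressed library 1, 2 or 3.

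The gene model of Igf2 differs between the annotations with which the groups were counted, so group and annotation cannot be told apart for it. The unstressed files were counted over a RefSeq annotation of mm10, and the stressed files list Ensembl genes. Igf2 (ENSMUSG00000048583.16) lies on the minus strand of chromosome 7, from 142650766 to 142666816 in GENCODE vM21 on GRCm38, the assembly also called mm10. There the predicted protein-coding gene Gm49394 runs over it on the same strand, from 142650769 to 142669942, and shares 3596 of its 5723 exonic bases and 546 of its 678 coding bases. Gm49394 has 0 counts in all 9 stressed libraries. Igf2 keeps 2029 exonic bases that it shares with no other gene in GENCODE, against 4890 in RefSeq, a ratio of 2.41. How reads in the shared bases were counted in the stressed files is not given, and the part of the annotation in the level was not tested. Per kb of own bases, Igf2 averaged 8.71 ± 0.83 CPM in psilocybin, 10.4 ± 1.43 in MDMA and 4.56 ± 3.91 in vehicle libraries, against 50.5 ± 5.88 in unstressed libraries (SD, n = 3 each). The group means per own kb were thus 5.8, 4.84 and 11.1 times lower in psilocybin, MDMA and vehicle than in unstressed libraries, where CPM alone gave 14.0, 11.7 and 26.7 times. An edgeR fit with own bases as an offset, added after seeing the data, gave -3.36 for vehicle against unstressed mice (adjusted p = 0.036), -2.52 for psilocybin (adjusted p = 0.293) and -2.30 for MDMA (adjusted p = 0.36) on the log2 scale. It takes every own base as equally likely to be read.

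Of 286 genes tested whose RefSeq own bases are 2 to 3 times those in GENCODE, 68.2% were lower in vehicle than in unstressed mice, with a median log2 difference of -1.02, and 28 passed the test (9.79%). Of 3812 genes with a ratio from 0.909 to 1.1, 58.1% were lower, with a median of -0.332, and 135 passed (3.54%). The median of the 286 genes was -0.37 for psilocybin and -0.419 for MDMA against unstressed mice, beside -0.115 and -0.044 for the 3812. The antisense gene Igf2os shares 98 exonic bases with Igf2 and had 13 counts over all stressed and 11 over all unstressed libraries. Without strand in the counting, reads of the pair cannot be told apart in those bases. The call for Igf2 in vehicle against unstressed mice was lost without psilocybin library 1, 2 or 3, MDMA library 1 or unstressed library 1, 2 or 3, with edgeR adjusted p from 0.051 to 0.0888, in a fit of the vehicle and unstressed libraries alone (adjusted p = 0.269), and with the replicate number as a block (adjusted p = 0.0749). With each of the 12 libraries left out in turn, the log2 difference ran from -5.63, without vehicle library 1, to -4.09, without vehicle library 3. Without vehicle libraries 1 and 3 it was -4.77 for Igf2 (edgeR adjusted p = 0.00798), where the vehicle group is 1 library with 8 counts of Igf2 and is assumed to vary like the other groups.

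**Figure D2:**
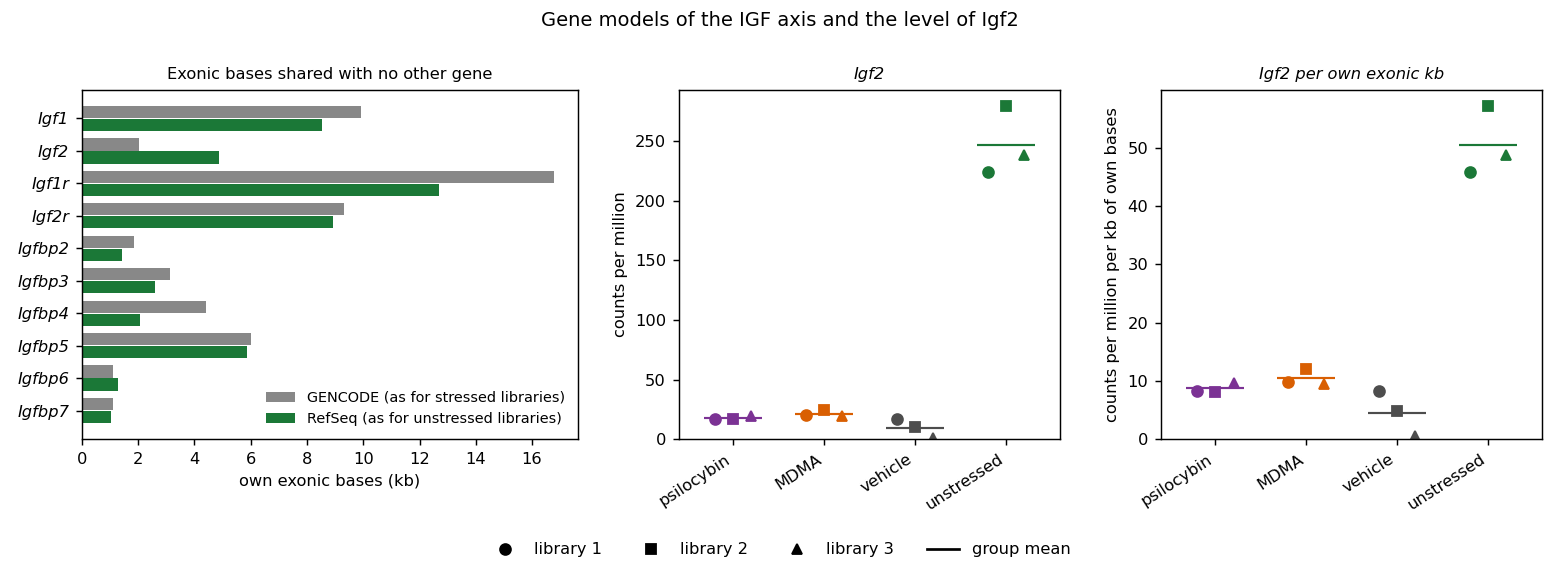
Left, exonic bases (kb) of the 10 genes that are shared with no other gene, in GENCODE vM21 and RefSeq; the middle and right panels show Igf2 in CPM and in CPM per kb of own bases for psilocybin, MDMA, vehicle and unstressed libraries, with group means as bars. The unstressed mean is 247.0 CPM and 50.5 CPM per own kb, above every stressed library on both scales.

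Igf2 has 4 transcription start entries in the RefSeq promoter table for GRCm38.p6. The windows of the most upstream and the most downstream start, 250 bases before to 50 after each, are shown because the level of Igf2 sums transcripts from all of them. Capitals mark matches, on either strand, to the motifs searched, which were the TATA box TATAAA with the related words ATAAAA and, in another form, TATTTAA, the GC box spelled GGGCGG and the CCAAT box. TATAAA and ATAAAA may overlap by 5 bases.
Igf2 upstream start, chr7:142666767-142667066, minus strand: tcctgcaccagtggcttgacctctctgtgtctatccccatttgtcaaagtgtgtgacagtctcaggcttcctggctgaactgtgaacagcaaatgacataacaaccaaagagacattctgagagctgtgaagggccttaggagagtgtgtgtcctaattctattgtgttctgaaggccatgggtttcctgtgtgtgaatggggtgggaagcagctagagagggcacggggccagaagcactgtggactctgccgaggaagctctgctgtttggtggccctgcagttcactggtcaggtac
Igf2 downstream start, chr7:142657447-142657746, minus strand: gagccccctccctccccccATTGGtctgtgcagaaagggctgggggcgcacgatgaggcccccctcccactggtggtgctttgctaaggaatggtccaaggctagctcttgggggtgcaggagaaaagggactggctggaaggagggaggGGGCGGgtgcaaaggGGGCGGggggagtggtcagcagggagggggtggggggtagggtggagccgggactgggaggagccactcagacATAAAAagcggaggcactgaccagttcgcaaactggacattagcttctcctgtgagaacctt
The upstream window holds none of the motifs and 2 CpG dinucleotides, against a median of 7 over 32851 promoter windows of this length. The downstream window holds ATAAAA, starting 12 bases before the start, which 18.5% of all windows hold, and GGGCGG, which 35.7% hold, at 100 and 85 bases before it. CCAAT, present in 37.4% of windows, lies on the other strand. The counts are per gene and do not say which start was used.

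The neighbours H19 and Ins2 of Igf2 on the chromosome had no call over all 12 libraries. H19, the imprinted non-coding RNA downstream of Igf2 that is expressed from the maternal copy, had 101.0, 53.4 and 101.0 CPM in psilocybin libraries 1, 2 and 3, and 157.0, 583.0 and 127.0 CPM in MDMA libraries 1, 2 and 3. It had 0.276, 75.5 and 620.0 CPM in vehicle libraries 1, 2 and 3, and 345.0, 329.0 and 527.0 CPM in unstressed libraries 1, 2 and 3. In the vehicle group H19 was thus highest in the library where Igf2 was lowest, and vehicle and unstressed libraries overlapped. For H19, the log2 difference of vehicle against unstressed mice was -0.34 ± 1.28 (edgeR adjusted p = 0.922), and its exonic bases are 2235 in GENCODE and 2204 in RefSeq. Ins2, an insulin gene upstream of Igf2, stayed at 12.1 CPM or below in every library.

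Igf1 did not pass the test in any comparison over all 12 libraries, and its mean in the vehicle group was carried by 1 library. It had 408.5, 118.0 and 290.0 CPM in psilocybin libraries 1, 2 and 3 and 482.7, 695.6 and 284.0 CPM in MDMA libraries 1, 2 and 3. It had 50.78, 134.9 and 1842 CPM in vehicle libraries 1, 2 and 3 and 355.0, 572.0 and 455.6 CPM in unstressed libraries 1, 2 and 3. The vehicle libraries held both the lowest and the highest value of all 12. The log2 difference was -1.75 ± 1.02 for psilocybin against vehicle (edgeR adjusted p = 0.444), -0.94 ± 1.0 for MDMA against vehicle (edgeR adjusted p = 0.708) and 1.03 ± 1.0 for vehicle against unstressed mice (edgeR adjusted p = 0.647). Without vehicle library 3, the difference of vehicle against unstressed mice turned to -2.36 for Igf1 (edgeR adjusted p = 0.0427) and stood at -2.36 for Igfbp5 (edgeR adjusted p = 0.0209), against -0.22 with it. Without it, Igf1 stood at 1.66 for psilocybin against vehicle (edgeR adjusted p = 0.198) and 2.47 for MDMA against vehicle (edgeR adjusted p = 0.0631). The ratio of Igf1 to Igf2 counts, which also carries the difference in the Igf2 model, was 7.14 to 28.4 in drug libraries, 3.02, 13.6 and 1800 in vehicle libraries 1, 2 and 3 and 1.59 to 2.05 in unstressed libraries.

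Igf1 and Igfbp5 varied together across the 9 stressed libraries. As a description, Pearson's r of log2(CPM + 1) was 0.957 over the 9, 0.935 without vehicle library 3, 0.819 over the 6 drug libraries and 0.872 without the 2 libraries farthest from the median of Igf1, which were vehicle libraries 1 and 3. Among 11730 genes with a mean of at least 5 CPM, the genes most like both were the same: Egfl6, a secreted protein with EGF-like repeats (r = 0.976 with Igf1 and 0.989 with Igfbp5), Arhgap6 (0.976 and 0.992), and Bicc1, an RNA-binding protein (0.972 and 0.974). Arhgap6 had 27.2, 6.15 and 22.1 CPM in psilocybin libraries 1, 2 and 3, 21.0, 58.8 and 28.6 CPM in MDMA libraries and 0.0, 3.71 and 263.0 CPM in vehicle libraries, so the vehicle group alone spans its whole range. Fibroblast markers, summed over 11 genes, stood at 4260, 2060 and 4660 CPM in psilocybin libraries 1, 2 and 3 and at 7390, 9730 and 14400 CPM in MDMA libraries. They stood at 1220, 3090 and 6490 CPM in vehicle libraries 1, 2 and 3, in the same order as Igf1 and Igfbp5, and psilocybin library 2 was the lowest of its group for the markers and for each gene. The full orders differed in both drug groups. In the psilocybin group the markers were highest in library 3 and Igf1 and Igfbp5 in library 1. In the MDMA group the markers were highest in library 3 and Igf1 and Igfbp5 in library 2. Over unstressed libraries 1, 2 and 3 the sum was 3990, 6880 and 5170 CPM, in the order of Igf1 and not of Igfbp5. In vehicle library 3, Col1a1 and Col1a2 had the most counts of the list, with 2948 and 3416. Not every fibroblast marker followed the sum: Pdgfra had 164, 119 and 81 counts in vehicle libraries 1, 2 and 3. Scaled to library size, Pdgfra was lowest in vehicle library 3, while Col1a1 and Col1a2 rose in the order of the sum. Border macrophage markers, summed over 8 genes, were 54.2, 27.7 and 131 CPM in psilocybin libraries 1, 2 and 3, 167, 168 and 94.6 CPM in MDMA libraries, 11.3, 90.4 and 286 CPM in vehicle libraries and 35.9, 89.1 and 173 CPM in unstressed libraries. Their order matched that of Igf1 in the MDMA and vehicle groups and not in the psilocybin and unstressed groups. The MDMA match rests on 168 against 167 CPM. In vehicle library 3 the sum rests on Mrc1 (370 counts) and Cd163 (184 counts), with 2 counts or fewer for every other gene of the list. Other markers went another way, with Cbr2 at 39, 10 and 0 counts and Lyve1 at 0, 21 and 0 in vehicle libraries 1, 2 and 3. Mural cell markers, summed over 8 genes, also followed Igf1 in the vehicle group, at 2240, 2900 and 4890 CPM in libraries 1, 2 and 3. The same held in the psilocybin group, at 3770, 2090 and 2370 CPM. It did not hold in the MDMA group (3400, 3040 and 2700 CPM) or the unstressed group (5550, 2680 and 3300 CPM). Single mural markers differed. In vehicle libraries 1, 2 and 3, Rgs5 had 2437, 1136 and 4142 counts, Acta2 3619, 683 and 1364 and Tagln 58, 8 and 6. Scaled to library size, Rgs5 rose over vehicle libraries 1 to 3, whereas Acta2 and Tagln fell. Microglia markers, summed over 7 genes, were 336, 228 and 461 CPM in psilocybin and 735, 406 and 665 CPM in MDMA libraries. They were 103, 469 and 217 CPM in vehicle and 251, 436 and 327 CPM in unstressed libraries. Their order matched that of Igf1 in the unstressed group only. Endothelial markers, summed over 8 genes, ran opposite to Igf1 in the vehicle group, at 1250, 1050 and 973 CPM. Their order matched that of Igf1 in both drug groups and not in the unstressed group. The part of these markers in the levels of Igf1 and Igfbp5 was not tested.

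The promoter windows of Igf1 and Igfbp5 are shown because these genes varied together while lying on different chromosomes.
Igf1, chr10:87860861-87861160, plus strand: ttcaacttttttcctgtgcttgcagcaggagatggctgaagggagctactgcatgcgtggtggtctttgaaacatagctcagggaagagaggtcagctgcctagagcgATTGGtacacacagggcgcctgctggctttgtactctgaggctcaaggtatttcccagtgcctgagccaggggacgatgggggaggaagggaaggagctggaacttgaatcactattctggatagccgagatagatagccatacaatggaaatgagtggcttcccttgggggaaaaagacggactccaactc
Igfbp5, chr1:72874816-72875115, minus strand: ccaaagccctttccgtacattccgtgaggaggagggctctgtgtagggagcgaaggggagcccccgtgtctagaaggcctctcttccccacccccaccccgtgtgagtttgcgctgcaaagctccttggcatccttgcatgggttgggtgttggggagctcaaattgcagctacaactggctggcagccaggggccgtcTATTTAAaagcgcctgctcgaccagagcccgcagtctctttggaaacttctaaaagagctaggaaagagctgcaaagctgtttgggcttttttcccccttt
Both windows come from RefSeq on GRCm38.p6. That of Igfbp5 holds TATTTAA, starting 51 bases before the start, which 4.51% of all windows hold on either strand. That of Igf1 holds CCAAT on the other strand and none of the other motifs. They hold 6 CpG dinucleotides for Igf1 and 10 for Igfbp5, beside a median of 7 over all windows. The other windows of the 10 genes hold from 2, at the upstream start of Igf2, to 48, in that of Igf1r, with 8 in that of Igfbp6. None of the motifs searched lies in both windows. In GENCODE vM21 the model of Igf1 begins at 87858265, upstream of the window shown, so other starts of Igf1 are not covered.

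Igfbp2, which encodes a binding protein abundant in cerebrospinal fluid, had 538.7, 292.1 and 363.6 CPM in psilocybin libraries 1, 2 and 3 and 362.5, 144.1 and 156.5 CPM in MDMA libraries 1, 2 and 3. It had 519.9, 330.6 and 57.82 CPM in vehicle libraries 1, 2 and 3 and 151.2, 96.79 and 191.1 CPM in unstressed libraries 1, 2 and 3. All psilocybin libraries lay above all unstressed ones. The log2 difference of psilocybin against unstressed mice was 1.46 ± 0.63 (edgeR adjusted p = 0.719, and 0.0437 in a fit of those libraries alone, which passes), and that of psilocybin against MDMA was 0.94 ± 0.62 (edgeR adjusted p = 1). Summed choroid plexus markers stood at 118000, 64500 and 67400 CPM in psilocybin libraries 1, 2 and 3, 44400, 30700 and 22600 CPM in MDMA libraries, 127000, 64400 and 12900 CPM in vehicle libraries and 40400, 15400 and 38600 CPM in unstressed libraries. In the psilocybin and vehicle groups the order of the libraries was the same for Igfbp2 and for this sum, and in the MDMA and unstressed groups a pair of libraries changed places. Ttr and Enpp2 had the most counts of the markers in every library, with 168822 and 276600 in vehicle library 1, so the sum mainly follows them. Not every marker did: Clic6 had 1484, 576 and 1116 counts in vehicle libraries 1, 2 and 3. Scaled to library size, Clic6 was lowest in vehicle library 1. None of the 10 markers is an IGF axis gene, and only Cdhr4 was at 0 in a group, the vehicle group. The genes most like Igfbp2 over the 9 stressed libraries were Ninj1, which acts in plasma membrane rupture (r = 0.992), Cidea, a lipid droplet protein (r = 0.986), and Ptgds, the prostaglandin D synthase of meninges and choroid plexus (r = 0.985). The part of choroid plexus RNA in the level of Igfbp2 was not tested.

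**Figure D3:**
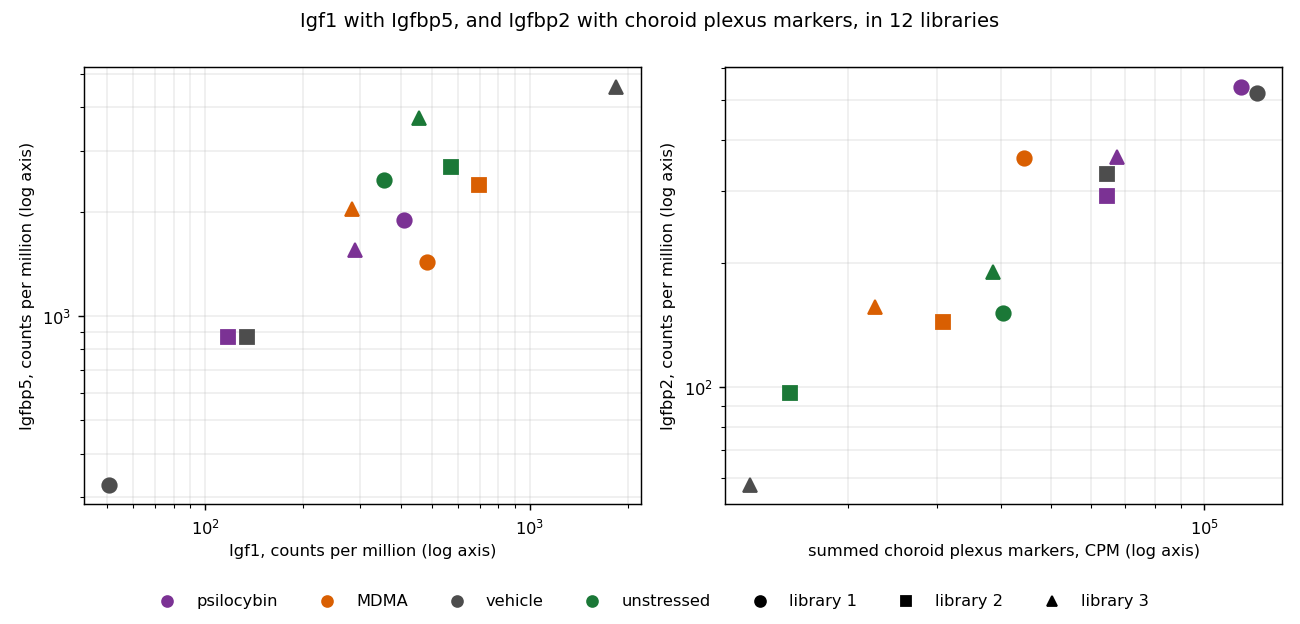
Each point is 1 of 12 libraries, with colour for the group and shape for the library number, on log axes in CPM. Left, Igfbp5 against Igf1, where vehicle library 1 lies lowest and vehicle library 3 highest; right, Igfbp2 against the sum of 10 choroid plexus markers, where vehicle library 3 lies lowest at 57.82 CPM of Igfbp2.

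The receptor genes passed no test in the fit over all 12 libraries. Igf1r had 120.2, 176.4 and 116.2 CPM in psilocybin libraries 1, 2 and 3 and 131.2, 289.6 and 78.06 CPM in MDMA libraries 1, 2 and 3. It had 64.57, 191.9 and 539.3 CPM in vehicle libraries 1, 2 and 3, and 543.9, 310.3 and 623.8 CPM in unstressed libraries 1, 2 and 3. All 6 drug libraries lay below all unstressed ones, and the vehicle libraries overlapped every group. The log2 difference was -1.84 ± 0.76 for psilocybin (edgeR adjusted p = 0.671) and -1.55 ± 0.75 for MDMA (edgeR adjusted p = 0.999) against unstressed mice. The own exonic bases of Igf1r are 12699 in RefSeq and 16791 in GENCODE. In a fit of the psilocybin and unstressed libraries alone, the difference of Igf1r was -1.84 with an edgeR adjusted p of 0.0191, which passes. Igf2r had 63.64, 58.8 and 50.5 CPM in psilocybin libraries 1, 2 and 3, 66.72, 115.4 and 49.45 CPM in MDMA libraries, 48.84, 85.43 and 46.05 CPM in vehicle libraries and 90.87, 70.59 and 126.8 CPM in unstressed libraries. The highest value of Igf2r was thus under 3 times the lowest, the narrowest range of the 10 genes. Over the 9 stressed libraries the genes most like Igf1r were Ube2q1 (r = 0.958), Ntmt1 (r = 0.956) and Fam160b1 (r = 0.953). Those most like Igf2r were Synrg (r = 0.939), Sfmbt2 and Zfp697 (r = 0.926 each). Sfmbt2 and Zfp697 had 30.4 and 47.6 CPM in MDMA library 2 and 11.1 and 12.4 CPM in vehicle library 2. In every other stressed library both had 4.49 CPM or less, and no r without MDMA library 2 and vehicle library 2 is given for them. Airn, the non-coding RNA transcribed from within Igf2r in the opposite direction that silences the paternal Igf2r copy in mice, had 50, 35 and 73 counts in psilocybin libraries 1, 2 and 3, 65, 73 and 54 counts in MDMA libraries, 0, 5 and 0 counts in vehicle libraries and 10, 38 and 39 counts in unstressed libraries. Airn was named after its values were seen, and it shares no exonic base with Igf2r in either annotation.

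For psilocybin and MDMA against vehicle, 0 of the 10 genes passed edgeR's test at an adjusted p of 0.05, where 0.0143% of all genes passed for psilocybin and 0.674% for MDMA. At an unadjusted p under 0.05 the number was also 0 of 10 for each drug, beside 15.9% of all genes for psilocybin and 16.7% for MDMA. DESeq2 and limma voom called 0 of the 10 as well, where over all genes they called 1057 and 436 for psilocybin and 1336 and 887 for MDMA. Both comparisons share the vehicle libraries. Igfbp6, whose protein prefers IGF2 over IGF1, had 164.9, 84.94 and 175.5 CPM in psilocybin libraries 1, 2 and 3 and 207.2, 133.2 and 129.1 CPM in MDMA libraries 1, 2 and 3. It had 59.88, 115.1 and 12.79 CPM in vehicle libraries 1, 2 and 3 and 46.45, 143.4 and 59.5 CPM in unstressed libraries 1, 2 and 3. The MDMA libraries all lay above the vehicle libraries. Its log2 difference was 1.19 ± 0.66 for psilocybin (edgeR adjusted p = 0.413) and 1.27 ± 0.66 for MDMA against vehicle (edgeR adjusted p = 0.363). For Igf2 these differences were 0.84 ± 0.70 (edgeR adjusted p = 0.628) and 1.06 ± 0.70 (edgeR adjusted p = 0.497). Igf2 and Igfbp6 were the 2 of 10 genes whose MDMA and vehicle libraries did not overlap, against 18.7% of all genes, and 0 of 10 did so for psilocybin, against 23.5% of all genes. The median log2 difference of the 10 genes was 0.003 for psilocybin and 0.198 for MDMA against vehicle, beside 0.308 and 0.241 over all genes tested. A test of any difference among the 3 stressed groups called 0 of 10 genes and 0.0% of all genes, with 1819 genes at an unadjusted p under 0.05.

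**Figure D4:**
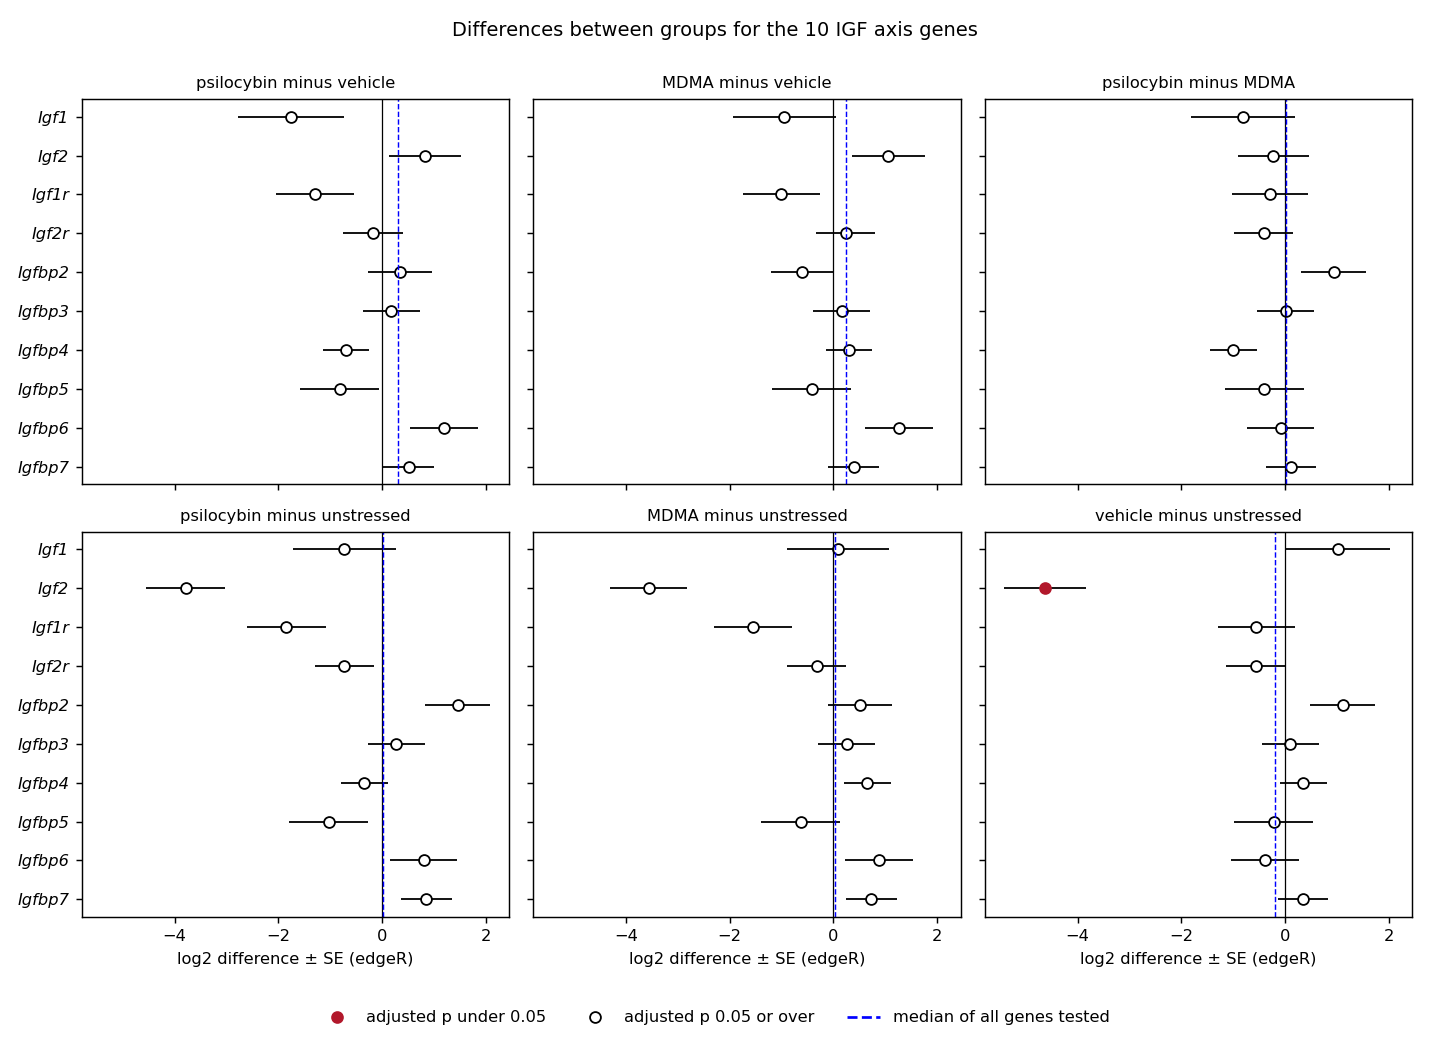
Log2 differences (horizontal axis) with standard errors from edgeR for the 10 genes in 6 comparisons, first group minus second; filled points passed an adjusted p of 0.05 and the dashed line is the median of all genes tested. Only Igf2 in vehicle minus unstressed is filled, at -4.63 ± 0.79.

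Between psilocybin and MDMA, 0 of 10 genes and 0.0% of all genes passed edgeR's test, with 81 of 13946 genes at an unadjusted p under 0.05 and 0 genes called by DESeq2 or limma voom. Igfbp4, whose protein is cut by the metalloproteinase PAPP-A to release IGF, was the gene of the axis with the smallest p here. It had 226.5, 202.5 and 250.8 CPM in psilocybin libraries 1, 2 and 3, against 311.5, 589.3 and 478.1 CPM in MDMA libraries 1, 2 and 3. It had 197.9, 334.3 and 409.9 CPM in vehicle libraries and 254.3, 286.1 and 324.8 CPM in unstressed libraries. Psilocybin and MDMA libraries did not overlap, which held for 1 of 10 genes and for 16.1% of all genes. The log2 difference of psilocybin against MDMA was -0.99 ± 0.45 (unadjusted p = 0.0449, edgeR adjusted p = 1). Igfbp4 ran opposite to Igfbp2 across the 9 stressed libraries, with r = -0.74, r = -0.871 without vehicle library 3 and r = -0.779 without the 2 libraries farthest from the median of Igfbp2. Its most similar genes were Kctd12 (r = 0.915), Fcho2 (r = 0.912) and Timp2 (r = 0.891), of which Timp2 encodes an inhibitor of metalloproteinases. The summed fibroblast markers were 2060 to 4660 CPM in psilocybin and 7390 to 14400 CPM in MDMA libraries, and their part in the level of Igfbp4 was not tested.

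The remaining binding protein genes, Igfbp3 and Igfbp7, passed no test over all 12 libraries. Igfbp3, whose protein carries most of the IGF in blood, had 174.4, 125.7 and 67.42 CPM in psilocybin libraries 1, 2 and 3, 151.9, 122.7 and 107.5 CPM in MDMA libraries, 51.6, 200.6 and 66.01 CPM in vehicle libraries and 92.91, 105.3 and 111.9 CPM in unstressed libraries. All groups overlapped the vehicle group. Igfbp7, an extracellular protein of vessels, had 325.6, 382.4 and 528.8 CPM in psilocybin libraries 1, 2 and 3, 559.3, 258.4 and 370.6 CPM in MDMA libraries, 284.5, 453.1 and 98.25 CPM in vehicle libraries and 245.2, 322.3 and 122.8 CPM in unstressed libraries. The psilocybin libraries of Igfbp7 all lay above the unstressed ones in CPM, by 325.6 against 322.3 at the nearest. Per kb of own bases they overlapped, with 289.7 in psilocybin library 1 against 312.6 in unstressed library 2. Exons of Igfbp7 share 85 bases in GENCODE and 89 in RefSeq with Polr2b on the opposite strand, and 93 in RefSeq with Gm34648. In vehicle library 3, Igf2, Igf2r, Igfbp2, Igfbp6 and Igfbp7 each had their lowest level of all 12 libraries, and Igf1 and Igfbp5 their highest. Correlations of Igf2 with Igfbp6 (r = 0.89) and of Igfbp6 with Igfbp7 (r = 0.896) over 9 libraries dropped to 0.293 and 0.55 without that library, so they rest on it. The genes most like Igf2 were Srgap2 (r = 0.994), Tmem11 (r = 0.993) and Tia1 (r = 0.993), which stood at 0.512, 0.0 and 4.09 CPM in that library. Those most like Igfbp6 were the glutathione transferase gene Gstm2 (r = 0.991), Lmo7 (r = 0.983) and Mfap5 (r = 0.981), a microfibril protein of fibroblasts. Igfbp7 was most like Cd52 (r = 0.989), a leukocyte surface protein, Rhod (r = 0.963) and Gstm1 (r = 0.96), and Igfbp3 was most like Tmc7 (r = 0.925), Alx4 (r = 0.914), a transcription factor of skull mesenchyme, and the kinase gene Tbk1 (r = 0.901).

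**Figure D5:**
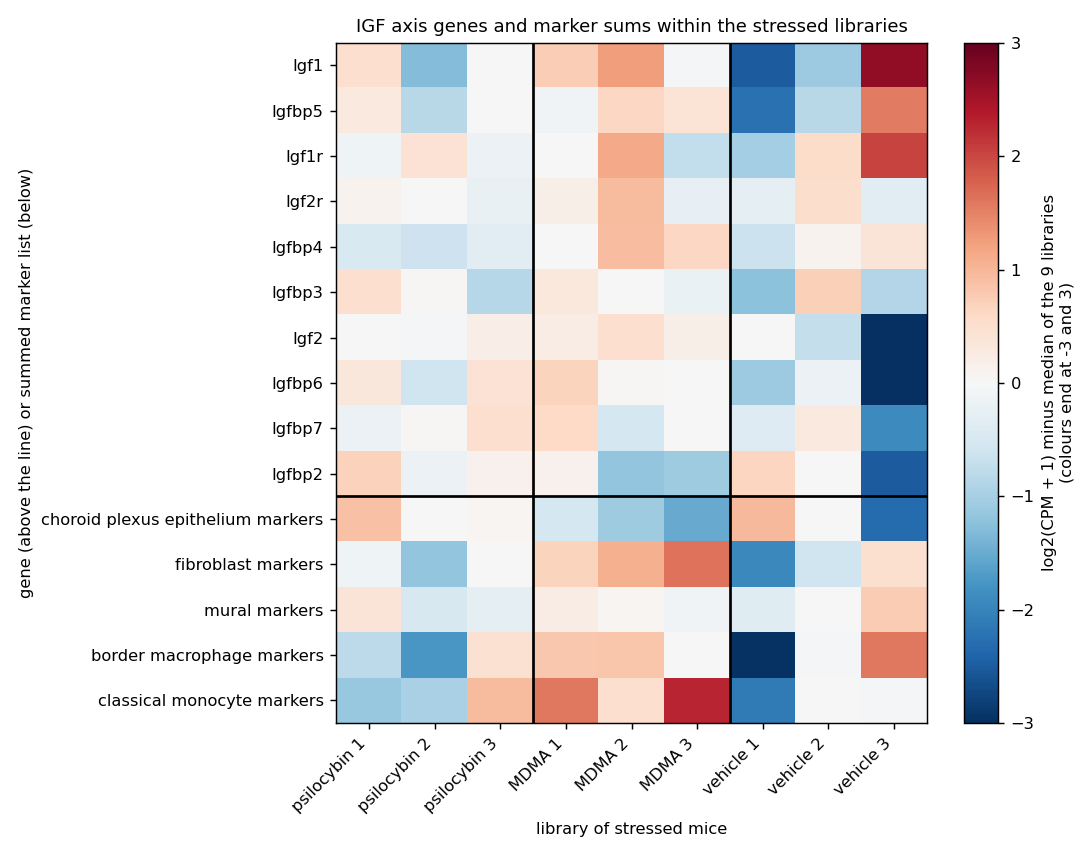
Rows are the 10 genes and 5 summed marker lists, columns are the 9 libraries of stressed mice, and colour is log2(CPM + 1) minus the median of the 9. In vehicle library 3, Igf1, Igfbp5 and Igf1r are above their medians and Igf2, Igfbp6, Igfbp7 and Igfbp2 below, as are the choroid plexus markers.

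Against unstressed mice, 0 of 10 genes passed edgeR's test for psilocybin and for MDMA, beside 0.086% and 0.122% of all genes. At an unadjusted p under 0.05 there were 3 for psilocybin (Igf2, Igf1r and Igfbp2) and 1 for MDMA (Igf2), beside 6.35% and 4.98% of all genes. DESeq2 and limma voom each called Igf2 in both, among 246 and 121 genes for psilocybin and 219 and 151 for MDMA. Psilocybin and unstressed libraries did not overlap for 7 of 10 genes, with Igfbp2 and Igfbp7 higher and Igf2, Igf1r, Igf2r, Igfbp4 and Igfbp5 lower, against 36.8% of all genes. Per kb of own bases it was again 7 of 10, without Igfbp7 and with Igf1, which was lower. MDMA and unstressed libraries did not overlap for 3 of 10, Igf2, Igf1r and Igfbp5, all lower, against 22.4% of all genes. Per kb of own bases Igfbp6 joined them, higher in MDMA libraries. Vehicle and unstressed libraries did not overlap per own kb for Igf2 and Igfbp4, both lower in vehicle, against Igf2 alone in CPM. Mean Igfbp4 was 314.0 CPM in vehicle, 459.6 in MDMA and 288.4 in unstressed libraries. Per own kb these means were 71.1, 104.1 and 139.4 CPM, so the direction against unstressed mice changed. Shares of all genes per own kb were not computed. The median log2 difference of the 10 genes was -0.53 for psilocybin, 0.17 for MDMA and -0.06 for vehicle against unstressed mice, beside 0.01, 0.04 and -0.18 over all genes tested. The 10 genes were chosen with results of these libraries known, and these counts and medians describe them without testing the list. Own exonic bases in RefSeq were 0.863 times those in GENCODE for Igf1, 0.756 for Igf1r, 0.768 for Igfbp2, 0.832 for Igfbp3, 0.469 for Igfbp4 and 1.159 for Igfbp6, and within 0.917 to 0.975 for Igf2r, Igfbp5 and Igfbp7. Only for Igf2 and Igfbp6 does RefSeq give more own exonic bases. With shared bases counted, the Igf2 model is the shorter in RefSeq, at 4988 exonic bases against 5723 in GENCODE.

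The rest of the pathway was taken from 4 lists, of which 52 genes were tested. In vehicle against unstressed mice 1 of the 52 passed edgeR's test, or 1.92% beside 3.43% of all genes, and in the other 5 comparisons of group pairs 0 of 52 did, where at most 0.674% of all genes passed. Of 30 genes of receptor signalling, from the insulin receptor to mTOR and FOXO, 28 were tested, with 0 calls. Irs1, an adaptor that IGF1R phosphorylates, had the smallest p of that list. It had 45.9, 168.0 and 82.1 CPM in psilocybin libraries 1, 2 and 3, 72.9, 6.99 and 76.7 CPM in MDMA libraries, 24.3, 90.4 and 123.0 CPM in vehicle libraries and 331.0, 575.0 and 310.0 CPM in unstressed libraries. All stressed libraries of Irs1 lay below all unstressed ones. Its log2 difference was -3.06 ± 0.84 for MDMA against unstressed mice (edgeR adjusted p = 0.263), and its own exonic bases are 6322 in GENCODE and 9163 in RefSeq. Of 16 genes of IGF binding and proteolysis 12 were tested, and of 7 ligand genes and neighbours of Igf2 4 were tested, with 0 calls in either list. Igfbp1, the binding protein made mainly in liver, had 1 count over the psilocybin group, 1 over the MDMA group and 0 over the vehicle and unstressed groups. Of 11 genes of the growth hormone pathway, which drives Igf1 in liver, 8 were tested and 1 passed: Jak2, the kinase bound to the growth hormone receptor, fell by 5.02 ± 1.297 on the log2 scale in vehicle against unstressed mice (edgeR adjusted p = 0.049). Jak2 had 29.6, 14.2 and 35.5 CPM in psilocybin libraries 1, 2 and 3, 35.0, 39.5 and 39.5 CPM in MDMA libraries, 0.0, 0.0 and 6.14 CPM in vehicle libraries and 85.8, 105.0 and 92.6 CPM in unstressed libraries. Its own exonic bases are 5030 in GENCODE and 10846 in RefSeq, and per own base the difference was -3.92, with an edgeR adjusted p of 0.0896. The call for Jak2 was also lost without vehicle library 1 (-4.32, adjusted p = 0.0517), without any 1 psilocybin, MDMA or unstressed library (-5.05 to -4.92, adjusted p from 0.0678 to 0.113), with DESeq2's size factors in edgeR (-4.74, adjusted p = 0.0653), in a fit of the vehicle and unstressed libraries alone (-5.00, adjusted p = 0.472) and with the replicate block (-5.69, adjusted p = 0.0982). Without vehicle library 3 no fold is given for Jak2, since the other vehicle libraries hold 0 counts of it. Growth hormone itself, Gh, had 1 count over the MDMA group, 5 over the unstressed group and 0 over the other two.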

How the data were processed

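Cells were enriched with a magnetic monocyte kit, PicoPure RNA was measured with Qubit and 5 ng went into NEBNext libraries, per the labels' protocols. The authors deposited raw counts of reads per gene. The submitters' processing notes name STAR 2.7.5c, featureCounts 2.0.1, edgeR 3.42.4, fastp 0.23.2, MultiQC 1.11, FastQC 0.11.9 and the mm10 build. Counting of the unstressed libraries used featureCounts over exons of a RefSeq annotation, with no strand or paired-end option, per the file headers. The stressed files carry Ensembl identifiers, for which neither an annotation release nor a counting command is given in the sources used here. The series-wide table repeated the 9 stressed libraries, and its other 3 columns, of no sample used here, were left out.

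Ensembl identifiers were matched to GENCODE vM21 (55141 of 55401) and joined to 35976 RefSeq genes, 26669 by symbol and 923 by position (exon Jaccard index of at least 0.5), which covered 94.799% to 99.096% of each library's counts. CPM used the deposited totals. Tests were edgeR 4.0.16 quasi-likelihood fits in R 4.3.3 over all 12 libraries (TMM factors from 0.7324 to 1.1302, filterByExpr, Benjamini-Hochberg at 0.05). Each standard error is the log2 difference over the root of its F. The fits were also run on simulated data with the same spread in all groups. Such data cannot show how the fits behave when the vehicle group varies more than the others. Alternatives used DESeq2 1.42.0 and limma 3.58.1. Groups and replicate numbers came from sample titles. Psilocybin and vehicle libraries of the same number had correlated deviations from their group means (0.116, 0.213 and 0.121 across genes). The main fits used the group alone and no pairing, and the replicate number entered only as a block in an alternative fit. The labels do not say what a number marks.

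The 10 genes, the pathway lists and the markers were chosen with earlier results of these data known. Named genes were the 10, the 3 genes most like each over the 9 stressed libraries, genes that overlap them, and list genes past the threshold; H19, Ins2, Irs1, Igfbp1, Gh and Airn were added after their values were seen. Promoter windows came from RefSeq on GRCm38.p6, with 10 of 10 genes matched in 14 entries.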

Additional observations from a re-analysis of the deposited data

How the results depend on the processing

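The number of the 10 genes called stayed at 0 for psilocybin against vehicle, MDMA against vehicle, psilocybin against MDMA and the test among the 3 stressed groups in every setting run. For vehicle against unstressed mice, 1 gene (Igf2) was called; this became 0 in a fit of only those libraries, with the replicate block, and over genes of nearly the same exons, where 3 of the 10 were kept and Igf2 was not among them. It ranged from 0 to 3 when each library was left out. For psilocybin against unstressed mice, 0 genes were called; this became 1 without a filter, with DESeq2, with limma voom and without vehicle libraries 1 and 3, and 3 (Igf2, Igf1r and Igfbp2) in a fit of only those libraries, with 0 to 1 over left-out libraries. For MDMA against unstressed mice, 0 genes were called; this became 1 (Igf2) with DESeq2, with limma voom, in a fit of only those libraries and without vehicle libraries 1 and 3, with 0 to 1 over left-out libraries. Among the 4 groups, 1 became 0 with the replicate block, over genes of nearly the same exons and per own exonic base, with 0 to 1 over left-out libraries. The causes were not tested. The log2 difference of Igf1 for vehicle against unstressed mice was 1.03 and ran from -2.36 to 1.58 over left-out libraries, of which only vehicle library 3 turned it. It also turned with limma voom (-1.2) and without vehicle libraries 1 and 3 (-1.9).

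Of 1209 values of single genes under other settings, 1 was reversed with a call, 9 lost and 16 gained a call, and 75 changed sign with neither value called. The number of all genes called moved far more: 478 for vehicle against unstressed mice became 2 in a fit of only those libraries and 3678 without vehicle library 2. For psilocybin and MDMA against vehicle, 2 and 94 became 3542 and 3615 without vehicle library 2, and 0 at the lowest. For psilocybin and MDMA against unstressed mice, 12 and 17 ran from 0 to 1381 and from 0 to 416. The tests among 3 and among 4 groups called 0 and 81 genes and reached 2516 and 2484 without vehicle library 2. DESeq2's size factors moved the median log2 difference of all genes by 0.184 for vehicle against unstressed mice, and by -0.189 for psilocybin and -0.141 for MDMA against vehicle. The replicate block changed no other call of the 10 genes. Same-numbered libraries of the other comparisons did not all deviate together, with correlations of their deviations from -0.098 to 0.317. Vehicle library 2, with 807725 counts, and the 2 and 8 counts of Igf2 in vehicle libraries limit what these levels can show.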
